A study of Mus musculus with 80 samples.

Results

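DNA methylation loss was followed in UHRF1 KO mouse embryonic stem cells (ESCs) between serum medium and 96 h of 2i, by reduced representation bisulfite sequencing (RRBS), a method that reads cytosine methylation in CpG-rich fragments of the genome. Members were the autosomal 500-bp tiles with 20 or more cytosine calls and 3 or more positions in all 4 libraries of these conditions. In total, 31143 tiles met this rule, of 494580 autosomal tiles with a call in any of the 4 libraries, and the 4 libraries were part of a series of 80 samples. The level of a tile was the percent of its calls that were methylated. Coordinates are those of build NCBIM37, for which no genome or gene annotation was at hand, so tiles are given by position and without gene names.

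UHRF1 recognises hemimethylated CpGs on newly copied DNA and brings the maintenance methyltransferase DNMT1 to them, so that a methylation pattern is passed on when a cell divides. DNMT3A and DNMT3B add methylation without a template, and TET enzymes oxidise methylated cytosine. ESCs in serum with LIF carry high methylation, whereas 2i, a serum-free medium with LIF and inhibitors of MEK and GSK3, is known for ESCs of low methylation. The comparison asked how far, how fast and how evenly methylation was lost between serum and 96 h of 2i in UHRF1 KO cells.

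The UHRF1 KO cells were labelled UHRF1-/- on the E14 background, with 2 libraries in serum and 2 libraries at each of 24, 48, 72, 96 and 168 h of 2i. According to the study's methods the floxed lines carried a tamoxifen-inducible Cre and recombination was induced before the experiment, so the serum samples were themselves already past induction. No RNA measurement of these cells was used, so the deletion was not checked here. Time in 2i was also time since induction, and the series holds no UHRF1 KO sample kept in serum over that time. The change of medium and the time since induction can therefore not be told apart in the UHRF1 KO. Lines with the wild-type label served for comparison, E14 (2 libraries in serum, 2 at 96 h) and UHRF1 WT (1 usable library in serum, 2 at 96 h), both on the E14 background. The second UHRF1 WT serum library held 6 positions and was not used. The labels do not say whether the 2 libraries of a group came from separate cultures. The spread between libraries behind the p-values may thus be technical. For single tiles, the quasi-binomial fit of serum and 96 h used 1 pooled spread for all 31143 tiles, 1.32 times that of binomial sampling. Its p-values therefore do not measure how far the libraries of a given tile disagreed.

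The 4 UHRF1 KO libraries held 3312379 and 6105853 calls in serum and 10164556 and 8399816 calls at 96 h, within a range of 3208182 to 43706248 over the 50 usable RRBS libraries of the series. A member tile had a median of 51 and 95 calls in the serum libraries and 151 and 125 calls at 96 h, so serum levels were the less precise ones. Replicates differed by more than counting error, with a dispersion over all tiles of 1.32 times that of binomial sampling. Fitted apart, the 24760 tiles with a mean level under 20% had a dispersion of 1.21. The 6383 tiles of 20% or more centred on 1.60, with single tiles up to 3.49.

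Mean methylation over the 31143 tiles was 17.7% and 18.1% in the serum libraries and 7.13% and 7.04% in the 96 h libraries. The 96 h libraries thus lay far below both serum libraries, at 7.08% ± 0.0643 against 17.9% ± 0.311 (SD, n = 2 each), a fall of 10.8 points that left 39.6% of the serum mean. An exact two-sided permutation test gave p = 0.333, which is the smallest value that 2 libraries against 2 allow. The size of the fall in points depended on which tiles were covered, because deeply covered tiles were mostly unmethylated. With 10 or more calls per tile the fall was 20.5 points, and with 50 or more it was 2.20 points, but the share of the serum mean that was left was 39.1% and 39.3%.

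The distribution of levels changed shape between serum and 96 h. Tiles at 80% or more numbered 3477 and 3533 in the serum libraries and 12 and 10 in the 96 h libraries. Tiles at 40% or more numbered 5900 and 5910 in serum and 1675 and 1616 at 96 h. At the other end, 67.0% and 65.6% of tiles lay under 5% in serum, and 75.7% did in each 96 h library. In serum the methylated tiles formed a peak above 80%, whereas at 96 h no second peak near full methylation was left and the methylated tiles spread over 20% to 55%.

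**Figure D1:**
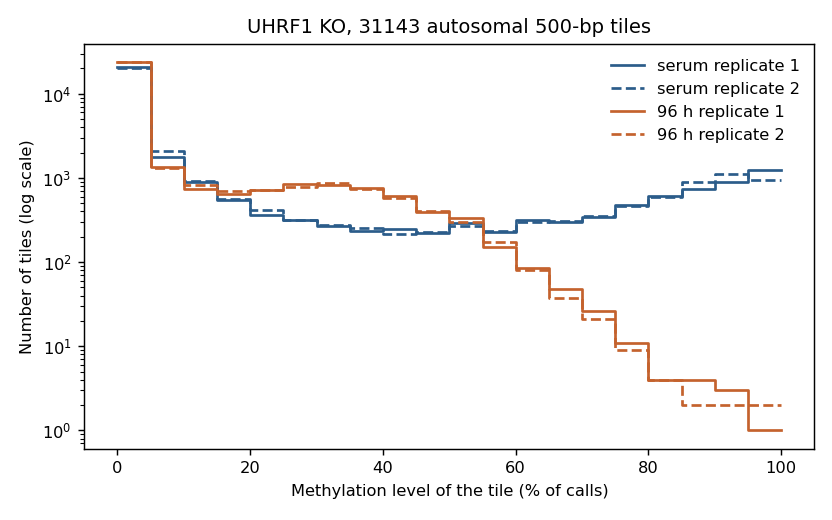
Number of the 31143 UHRF1 KO tiles (vertical axis, log scale) by methylation level in 5-point bins (horizontal axis, % of calls), with 1 line for each of the 4 libraries. Both serum libraries peak again above 80%, with 3477 and 3533 tiles there, and the 96 h libraries hold 12 and 10.

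Tile by tile, 6319 of 31143 tiles (20.3%) were lower at 96 h by 20 points or more at an adjusted p under 0.05 in a quasi-binomial fit across all tiles, moderated with limma's squeezeVar. No tile (0%) was called higher by the same rule, with 46 tiles higher at an unadjusted p under 0.05 by this fit and 17 by limma on log2 ratios, which also called no tile higher and called 6068 lower. The count of lower tiles moved with coverage, to 19462 of 50274 tiles with 10 or more calls and 420 of 15676 with 50 or more. With calls thinned to 20 per tile and library none was called lower (5762 at an unadjusted p under 0.05), and 5559 were with the dispersion of the unthinned fit. In simulated counts with few tiles changed, the fit recovered 6 of 50 tiles lowered by 20 points. Many more tiles changed in the data, which makes the adjusted p less strict, so this does not give the recovery there. The fall of the called tiles had a median of 46.5 points, and it lay between 20 and 40 points in 2089 tiles, between 40 and 60 points in 3414 and at 60 points or more in 816. In 14225 tiles (45.7%) both 96 h libraries lay below both serum libraries, and in 874 (2.81%) both lay above. The largest rise of any tile was 10.6 points, on chromosome 14 from 67848501 to 67849000, where levels were 10.7% and 4.17% in serum and 10.99% and 25% at 96 h (adjusted p = 0.355 in the quasi-binomial fit). This rise rested on 24 to 91 calls per library, and the lower 96 h library all but met the higher serum library. Tiles that were already low in serum had little to lose: in the 24047 tiles with a serum mean under 20% the median change was -0.56 points.

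Loss reached nearly all of the methylated tiles. Of the 5643 tiles at 40% or more in both serum libraries, 5574 were called lower, and in 5621 both 96 h libraries lay below both serum libraries. These tiles were chosen on their serum level, so the counts describe the loss and are not a test. The 69 tiles that were not called had a median of 24 calls in their shallowest library. They also began lower, with a serum median of 61.6% against 85.5% over the 5643 tiles. Of the 69, 17 fell by 20 points or more without passing the adjusted p, and 52 did not fall that far. In the 5643 tiles the median level went from 85.5% in serum to 32.8% at 96 h.

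The largest falls among well covered tiles, with 50 or more calls in each library and at most 1 tile per 1 Mb, were changes of -75.2 to -61.4 points over 10 tiles drawn from 419 that passed. To pass, a tile had to be called lower with both 96 h libraries below both serum libraries. Separation and low p-values were thus set by the choice and are a description. Of these, the tile that fell most was on chromosome 8 from 109076501 to 109077000 and held 8 positions. Its level was 100% (95% Wilson interval 93.1 to 100, 52 calls) and 92.1% (84.6 to 96.1, 89 calls) in the serum libraries, and 21.6% (14.6 to 30.8, 97 calls) and 20% (12.7 to 30.05, 80 calls) at 96 h. These intervals cover counting error only, since copies of a molecule made by PCR are not independent. The 96 h intervals did not reach the serum ones, and the adjusted p was 4.78e-32 in the quasi-binomial fit. With dispersions set apart for tiles of 20% or more, chosen after seeing the data, that fit gave this tile an adjusted p of 1.03e-09. The next tile, on chromosome 1 from 137429001 to 137429500, went from 100% and 98.1% to 30.3% and 27.0%. Its adjusted p was 1.00e-26 in the quasi-binomial fit, and 3.23e-09 in that fit with dispersions set apart. Over the 10 tiles the serum libraries ranged from 79.7% to 100% and the 96 h libraries from 16.3% to 37.0%. At 24, 48 and 72 h, which did not enter the choice, their median levels were 72.2%, 52.7% and 42.0%.

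In well covered tiles that were high in serum, the smallest changes were still losses. Among the 124 tiles at 80% or more in both serum libraries and with 50 or more calls in each library, 124 were called lower. The change ran from -75.2 to -27.4 points with a median of -49.9. These tiles were chosen on serum libraries that also enter the comparison, so their counts and p-values are a description and not a test. The tile that changed least was on chromosome 8 from 93100001 to 93100500, with 96.3% and 98.0% in serum and 70.2% and 69.4% at 96 h. It kept 71.8% of its serum mean (adjusted p of the fall 7.91e-12 in the quasi-binomial fit). On chromosome 1, from 85144001 to 85144500, levels of 96.5% and 93.3% in serum went to 65.3% and 62.9% at 96 h. The 10 tiles with the smallest changes kept 59.3% to 71.8% of their serum mean, against 21.7% to 31.9% in the 10 with the largest falls. In 1 of the 10, on chromosome 1 from 192981001 to 192981500, the 96 h libraries disagreed, at 36.5% and 89.4% against 98.9% and 88.3% in serum. Without the first 96 h library the change there was -4.22 points (adjusted p = 0.434 in the quasi-binomial fit). At 24, 48 and 72 h the median levels of these 10 tiles were 83.7%, 73.5% and 64.6%, each above those of the tiles that fell most.

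**Figure D2:**
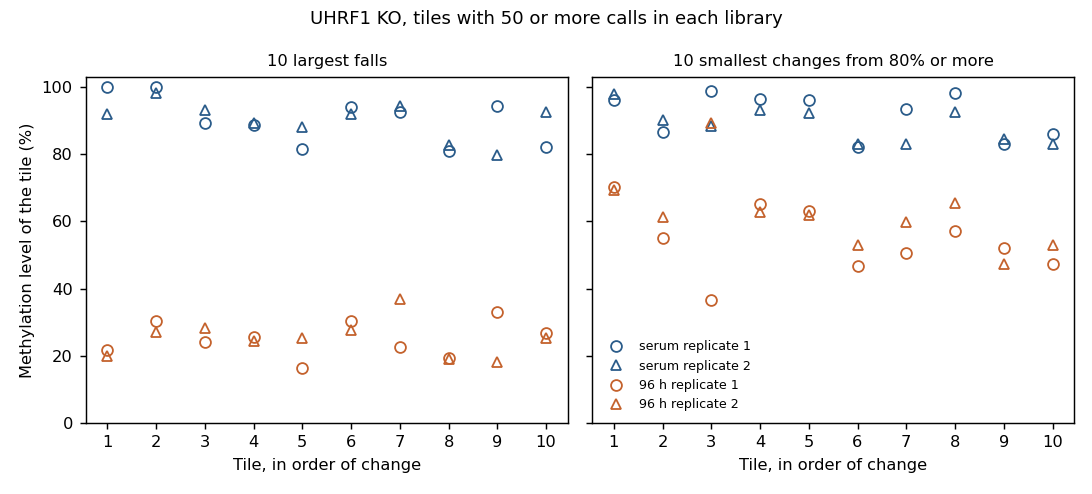
Methylation level (vertical axis, %) in the 4 UHRF1 KO libraries for the 10 tiles with the largest falls (left) and the 10 tiles of 80% or more in serum with the smallest changes (right), each with 50 or more calls per library and placed in order of change (horizontal axis). On the left, 96 h points lie between 16.3% and 37.0% and serum points between 79.7% and 100%. On the right, 96 h points lie at or under 70.2% except in the tile where the 2 libraries were at 36.5% and 89.4%.

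The course was examined on the 24264 member tiles that also passed the coverage rule in the 24, 48 and 72 h libraries of the UHRF1 KO. Mean methylation there was 10.4% and 10.8% in the serum libraries, and after 24 h it was 8.35% and 8.19%. The 48 h libraries stood at 6.25% and 6.53%, those of 72 h at 5.10% and 5.00%, and those of 96 h at 4.20% and 4.14%. The libraries of neighbouring times did not overlap at any step. Mean level and time, with serum as 0 h, were related with Pearson's r = -0.983 (permutation p = 3.00e-05) and Spearman's rho = -0.985 (permutation p = 4.00e-05) over 10 libraries. Both tests were two-sided and used 100000 permutations. They permuted the libraries as separate units, though the libraries come as pairs from the same time that may be technical. If so, these p-values are too small. Serum and 96 h are equally far from the median time, so each pair was left out in turn: r was -0.985 without the serum libraries and -0.991 without the 96 h libraries.

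The fall was largest in points at the first step and then became smaller, while the share kept per day was nearly even. In the 2357 of these tiles at 40% or more in both serum libraries the mean level was 78.3% ± 0.217 in serum (SD, n = 2 here and for each later time). It was 62.6% ± 0.249 after 24 h and 48.6% ± 0.333 after 48 h. The 72 h libraries averaged 39.0% ± 0.784, and the 96 h libraries 32.2% ± 0.554. From each time to the next the mean moved by -15.7, -14.0, -9.61 and -6.80 points. Expressed as the share of the level 24 h before, 79.96% was kept to 24 h, and from there 77.6% to 48 h. A further 80.2% was kept to 72 h and 82.6% to 96 h. Over all pairings of libraries these shares ran from 79.6% to 80.3%, 77.0% to 78.2%, 78.7% to 81.8% and 80.4% to 84.8%. The range to 72 h overlapped those to 24 h and to 96 h, and the range to 48 h lay below the others. Whether the shares differ was not tested.

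**Figure D3:**
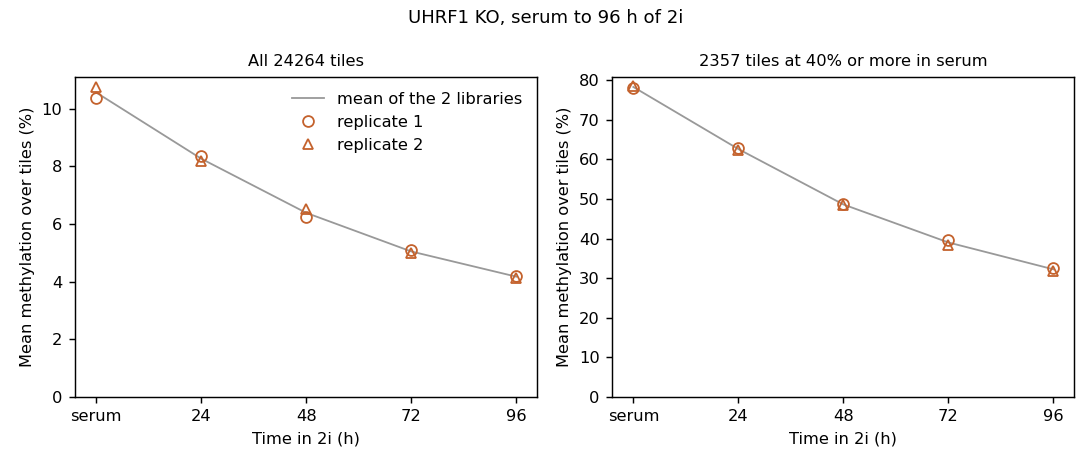
Mean methylation (vertical axis, %) of UHRF1 KO tiles against time in 2i (horizontal axis, h, serum at the left), with 1 point per library and a line through the means of 2 libraries. Left, the 24264 tiles with coverage in all 10 libraries, which go from 10.4% and 10.8% to 4.20% and 4.14%. Right, the 2357 tiles at 40% or more in serum, where the mean falls from 78.3% to 32.2% with smaller steps later on.

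Most single tiles were lower at each step. Of these 2357 tiles, 1407 (59.7%) were lower at every step in the mean of the 2 libraries. A member tile had a median of only 49 to 71 calls in the 24 and 48 h libraries. Counting error alone can thus place a falling tile higher at a step, and whether the other tiles departed from a steady fall was not tested. The level first reached 50% of serum or less at 24 h in 65 tiles and at 48 h in 488. It did so at 72 h in 806 tiles and not before 96 h in 570, and 428 stayed above it to 96 h. In the fit of all 10 libraries, tiles called lower by 20 points or more numbered 332 (1.37%) at 24 h against serum, 154 (0.635%) at 48 h against 24 h, 72 (0.297%) at 72 h against 48 h and 46 (0.19%) at 96 h against 72 h. Called higher were 0, 1, 0 and 0 tiles (0.00412% for the 1 tile at 48 h), with 408, 291, 115 and 247 higher at an unadjusted p under 0.05 in the same fit. The step counts rested on few calls per tile and on the method, since limma on log2 ratios called 2, 0, 11 and 0 tiles lower. They also depended on single libraries. At 24 h against serum, 168 and 71 tiles were called without serum library 1 or 2, and 148 and 166 without 24 h library 1 or 2. At 48 h against 24 h, 41 and 80 were called without 24 h library 1 or 2, and 90 and 63 without 48 h library 1 or 2. At 72 h against 48 h, 32 were called without 48 h library 2 and 41 without 72 h library 1. At 96 h against 72 h, 31 were called without 72 h library 1 and 26 and 21 without 96 h library 1 or 2.

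Among tiles at 40% or more in serum, the share of serum methylation that was kept rose with the serum level. When serum library 1 set the class and serum library 2 gave the level, the 989 tiles of 40% to 60% kept 34.2% and 34.1% of a mean of 51.0% in the 96 h libraries. The 1434 tiles of 60% to 80% kept 38.5% and 38.0% of 73.0%, and the 3477 tiles of 80% or more kept 42.9% and 42.1% of 88.9%. With the serum libraries exchanged the shares were 34.7% and 34.8%, 38.7% and 38.0%, and 43.1% and 42.3%, in the same order. Below 40% the order did not hold: by serum library 2, tiles of 20% to 40% kept 33.4% and 33.1% and tiles under 20%, whose serum mean was 2.20%, kept 36.5% and 37.5%. By serum library 1 these classes kept 32.9% and 33.3%, and 31.2% and 31.7%. From 40% up, the differences between classes were larger than those between the 96 h libraries and between the serum libraries. Below 40% they were not, since the class under 20% differed more between the serum libraries than from its neighbour. In points the fall grew with the serum level too, from 33.6 to 45.0 and 51.1.

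Tiles varied around these shares, in part repeatably. Over the 5643 tiles at 40% or more in both serum libraries the share kept had a median of 39.8%, with 5% of tiles at or under 20.7% and 5% at or over 61.1%, and 1097 tiles (19.4%) kept 50% or more. In the 310 of these tiles with 50 or more calls in each library, 93 (30%) did. Part of this spread was counting error. The share from the first serum and 96 h library and the share from the second pair, which have no library in common, correlated over tiles with r = 0.415 (Spearman's rho = 0.403, n = 5643). In the 310 well covered tiles the correlation was r = 0.607 (rho = 0.630).

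Several features other than the methylation levels were set against the share kept, though the coverage rule used the positions and calls of a tile. All are given as medians over the 5643 tiles at 40% or more in both serum libraries, without a test, since neighbouring tiles share their surroundings. The number of positions in the tile made little difference: the median share was 39.8% with 3 to 5 positions, 39.8% with 6 to 10, 39.5% with 11 to 20 and 43.4% in the 56 tiles with 21 or more. The serum median fell along these classes, from 87.7% to 62.3%. At a serum mean of 80% to 95% the share was 40.4% with 3 to 5 positions, 40.6% with 6 to 10 and 42.4% with 11 to 20. The density of RRBS positions over the surrounding 1 Mb, counted in the UHRF1 KO libraries of serum and 96 h, went the other way. In the lowest quintile of density (median 386 positions per 1 Mb) tiles kept 46.5%, and in the highest (3115 positions) 36.7%. Both pairs of libraries gave this order, with 46.7% and 45.3% in the lowest and 36.5% and 35.9% in the highest quintile. Among tiles with a serum mean of 80% to 95% the values were 46.4% and 37.8%, so the order held at like serum levels. By chromosome the median ran from 37.5% on chromosome 11 to 42.8% on chromosome 1.

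H3K9me2, a histone mark of silent chromatin that UHRF1 can bind, was compared from ChIP followed by bisulfite sequencing (ChIP-BS) of wild-type cells on the E14 background in serum and in 2i, 2 bound and 2 input libraries each. The study describes the 2i cells of the ChIP-BS as long-term 2i, so their values are not those of 96 h. Calls were summed in 10-kb windows and bound was divided by input. Tiles in the 10% of windows with the highest serum ratio kept 41.9% (385 tiles) against 39.7% in the others (5113 tiles). For the 2i ratio the values were 45.0% (254 tiles) and 40.3% (4609 tiles). Split into quintiles of tiles by the 2i ratio, the share kept was 35.7%, 37.4%, 40.2%, 44.3% and 46.0% from lowest to highest. Among tiles with a serum mean of 80% to 95% it was 37.2%, 39.0%, 40.8%, 44.9% and 46.0%. By the serum ratio the quintiles ran from 35.5% to 42.6%. Methylation of the same windows in the 2i input libraries, which carries no antibody, gave an order of like size, from 35.1% in the lowest quintile (median window level 17.4%) to 46.7% in the highest (50.7%).

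The tiles that kept more in the UHRF1 KO were also those with more methylation left in the wild-type lines, with which they share no library. By level in E14 at 96 h, the UHRF1 KO kept 30.1% in the lowest quintile (median E14 level 21.8%), 37.6%, 40.3% and 41.1% in the middle ones and 47.4% in the highest (80.7%). By level in UHRF1 WT at 168 h, it kept 29.5% in the lowest (12.1%) and 48.9% in the highest quintile (69.6%). Serum level in the UHRF1 KO rose along the same quintiles, from 63.4% to 92.7% in the latter split. Among tiles with a serum mean of 80% to 95% the shares were 30.4% and 48.4%. The total calls of a tile, by contrast, gave 38.1% in the lowest and 41.1% in the highest quintile.

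**Figure D4:**
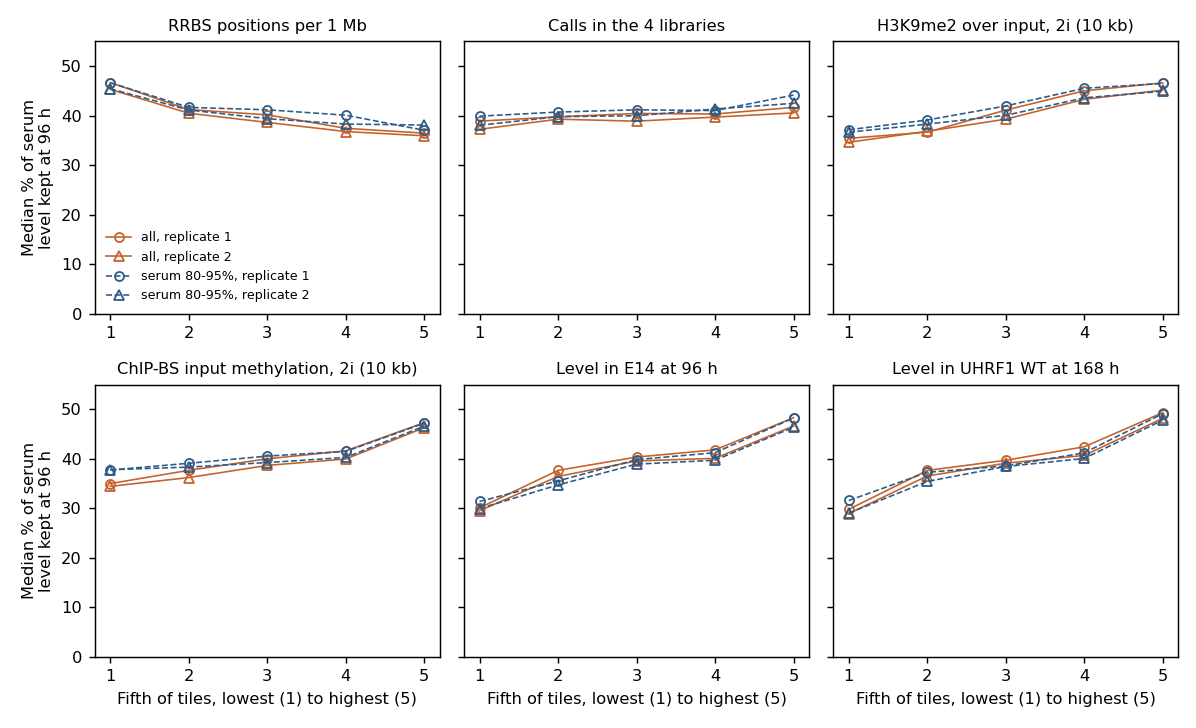
Median share of the serum level kept at 96 h in the UHRF1 KO (vertical axis, %) by quintile of tiles (horizontal axis, lowest to highest) for 6 features, with circles for libraries numbered 1 and triangles for libraries numbered 2. Solid lines are tiles at 40% or more in both serum libraries (up to 5643 tiles), and dashed lines those with a serum mean of 80% to 95%. Over all 4 libraries the share falls with position density (46.5% to 36.7%) and rises with the 2i H3K9me2 ratio (35.7% to 46.0%) and with the level left in wild-type cells (29.5% to 48.9% for UHRF1 WT at 168 h).

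The extremes were few. Of the 5643 tiles, 10 kept 80% or more of their serum mean in both 96 h libraries and 125 kept 20% or less. They were chosen on the 96 h libraries, so their 96 h values are a description. Just outside these limits, 51 tiles had a mean share of 70% to 80% and 338 had a share of 20% to 25%. The 10 kept tiles rested on 20 to 135 calls per library. A tile on chromosome 10, from 96791501 to 96792000, stood at 100% and 100% in serum and 82.0% and 90% at 96 h. In libraries the choice did not use it stood at 91.2% in the UHRF1 KO at 72 h, 91.9% in UHRF1 WT at 96 h and 96.2% in E14 at 96 h. A tile on chromosome 6, from 125974501 to 125975000, stood at 80% and 71.2% in serum and 69.8% and 78.6% at 96 h in the UHRF1 KO, and at 32.4% in serum and 19.8% at 96 h in E14. In UHRF1 WT that tile stood at 66.7% in serum and 73.3% at 96 h. High levels were thus shared with both wild-type lines in the tile on chromosome 10, and with UHRF1 WT but not E14 in the tile on chromosome 6. Kept tiles on chromosomes 8 (from 18432501), 14 (from 73380001) and 16 (from 53530501) were lower at 96 h in UHRF1 WT than in both UHRF1 KO libraries. The 9 kept tiles with a value in UHRF1 WT at 96 h had a median of 89.5% there and ran from 40.3% to 98.2%. At 72 h in the UHRF1 KO the 10 kept tiles had a median of 71.3%, the 125 lost tiles 16.1% and all 5643 tiles 40.8%. At 96 h, the time of the choice, these medians were 81.1%, 8.33% and 32.8%. At 168 h they were 56.5%, 18.7% and 41.2% among tiles with a value. The kept tiles were thus lower at 72 h than at 96 h, while all tiles together were higher. How far the choice itself set the 96 h values apart was not tested.

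The 125 tiles that kept 20% or less began lower in the UHRF1 KO itself, with a serum median of 59.6% against 85.7% over the 5643 tiles. They were also below the other methylated tiles in E14 in serum and at 96 h, and in UHRF1 WT mainly later in 2i. Their median level in E14 was 40.4% in serum and 15.6% at 96 h (123 tiles with 40 or more calls), against 76.9% and 55.7% over all tiles with a value. E14 stood higher after 24 h of 2i than in serum, at 55.7% in these tiles and 81.3% over all, so its serum level was not its highest. In UHRF1 WT they were still high in serum, with a median of 88.3% against 94.4% over all tiles. There it was 59.6% at 48 h against 84.9%, and 23.4% at 96 h against 63.6%. A tile on chromosome 12 from 80381001 to 80381500 stood at 68.9% and 65.9% in serum and 4.04% and 9.86% at 96 h in the UHRF1 KO. In UHRF1 WT it went from 87.4% to 25% and in E14 from 54.9% to 21.5%. The loss of this tile was thus seen with the wild-type label too, to higher levels at 96 h.

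Against E14, the UHRF1 KO lost more over the same 96 h from a higher start. On the 30844 tiles that passed in all 8 libraries, E14 went from 15.1% and 15.6% in serum to 10.8% and 10.9% at 96 h, and the UHRF1 KO from 17.3% and 17.7% to 6.94% and 6.85%. The UHRF1 KO was above E14 in serum and below it at 96 h, without overlap at either time. It kept 39.4% of its serum mean and E14 70.5%, a difference of -31.1 points, where the E14 share is taken from a serum level below that of E14 at 24 h in the methylated tiles. An exact two-sided permutation of the line labels within serum and within 96 h gave p = 0.0556, the smallest value that the 36 arrangements allow. The UHRF1 KO began above E14, which also enters this p-value, so it does not measure the loss alone. On the 4911 tiles at 40% or more in serum of both lines the difference was -34.2 points, with 41.1% kept in the UHRF1 KO and 75.3% in E14.

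Against UHRF1 WT the direction was the same but the test could not resolve it. On 30971 shared tiles the lone UHRF1 WT serum library stood at 20.6% and its 96 h libraries at 12.7% and 12.5%, and the UHRF1 KO at 17.5% and 17.9% in serum and 7.04% and 6.96% at 96 h. UHRF1 WT kept 61.1% and the UHRF1 KO 39.5%, a difference of -21.6 points (exact permutation p = 0.333, where 18 arrangements allow 0.0556 at the least). Line labels were exchanged in serum too, where the UHRF1 KO began lower, and such exchanges widen the difference. The p-value thus depends on the starting levels and does not measure the loss alone. The UHRF1 KO was thus below its wild-type line in serum already, and further below it at 96 h. On the 5493 tiles at 40% or more in serum of both lines 40.6% was kept in the UHRF1 KO and 67.9% in UHRF1 WT. With 50 or more calls per tile the difference was smaller, at -12.3 points with 51.6% kept in UHRF1 WT and 39.3% in the UHRF1 KO.

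**Figure D5:**
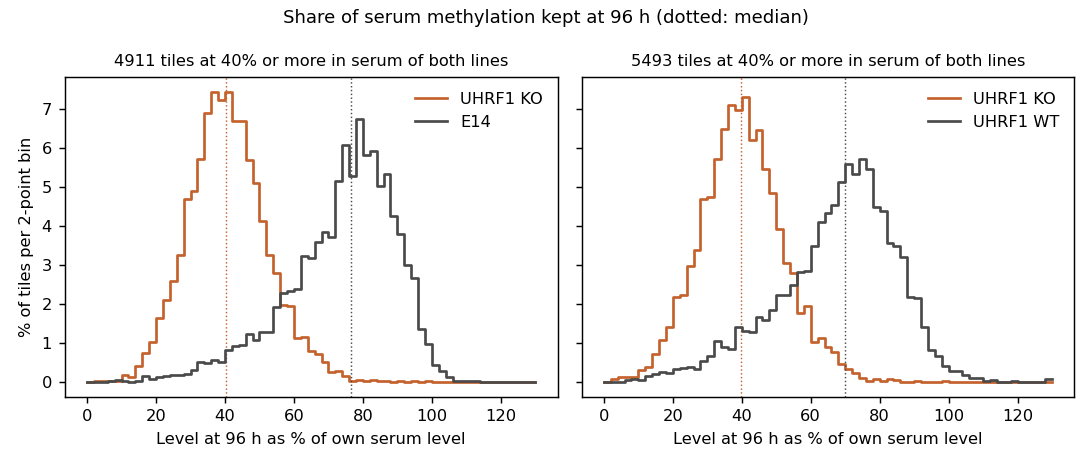
Distribution of the share of the own serum level kept at 96 h (horizontal axis, %) over tiles at 40% or more in serum of both lines, as % of tiles per 2-point bin (vertical axis), for the UHRF1 KO with E14 (left, 4911 tiles) and with UHRF1 WT (right, 5493 tiles). Dotted lines mark medians, 40.3% and 76.4% on the left and 39.7% and 70.1% on the right, and shares over 130% are drawn in the last bin.

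The greater loss was seen in nearly all methylated tiles. In 4825 of the 4911 tiles (98.2%) the UHRF1 KO kept less than E14, and in 5289 of 5493 (96.3%) less than UHRF1 WT. In points the share kept was spread less widely in the UHRF1 KO, though not relative to its lower level, with 5% of tiles at or under 22.8% and 5% at or over 60.5%, against 43.4% and 94.7% in E14. Over tiles the shares of KO and wild-type lines correlated with r = 0.505 for E14 (n = 4911) and r = 0.581 for UHRF1 WT (n = 5493), which is a description, as tiles share their coverage and surroundings in both lines.

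Tested tile by tile as an interaction of line and time in the quasi-binomial fit, 2393 of 30844 tiles (7.76%) fell by 20 points or more beyond E14 and 1 tile (0.00324%) fell less than E14 by 20 points or more. In simulated counts with few tiles changed, the quasi-binomial fit recovered 9 of 100 tiles that differed by 20 points, which does not give its recovery in the data. By limma on log2 ratios no tile was called in either direction, with 5040 and 135 at an unadjusted p under 0.05. The counts of called tiles thus depend on the fit. They also depend on the shallow serum libraries, with 1441 tiles called without UHRF1 KO serum library 1 and 610 without serum library 2. Among called tiles with 50 or more calls in each of the 8 libraries, the largest difference was in the one on chromosome 8 from 109076501 that also fell most at that coverage. In E14 it stood at 88.3% and 89.4% in serum and 77.3% and 66.4% at 96 h, so that the UHRF1 KO fell by 58.2 points more (adjusted p = 1.64e-06 in the quasi-binomial fit). On chromosome 14, from 75723001 to 75723500, the UHRF1 KO went from 92.5% and 94.5% to 22.7% and 37.0%, and E14 from 92.1% and 93.3% to 80.3% and 86.8%. On chromosome 7, from 26500501 to 26501000, the UHRF1 KO went from 88.7% and 89.3% to 25.4% and 24.2%, and E14 from 78.3% and 71.9% to 65.9% and 64.4%. All 3 tiles began at like or higher levels in the UHRF1 KO and ended far below E14, without overlap at 96 h. In UHRF1 WT these tiles went from 100% to 67.4% on chromosome 8, from 97.2% to 74.9% on chromosome 14 and from 97.0% to 72.8% on chromosome 7. Each fell further there than in E14, so the differences from E14 are larger than those from UHRF1 WT.

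The tile in the other direction was on chromosome 5 from 140056001 to 140056500. The UHRF1 KO stood at 36.2% and 50.0% in serum and 26.4% and 23.7% at 96 h, and E14 at 39.1% and 60.3% in serum and 4.21% and 11.3% at 96 h. Its difference was 23.9 points (adjusted p = 0.0118 in the quasi-binomial fit), and 0 to 2 tiles were called in this direction when single libraries were left out. The UHRF1 KO was above E14 at 96 h in both libraries, while the serum libraries of both lines overlapped.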

How the data were processed

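RRBS libraries were analysed from the coverage files the authors deposited, which hold counts of methylated and unmethylated calls per cytosine position in the layout of Bismark. The submitters' notes name Trim Galore 0.3.5, Bismark 0.12.3 and Bowtie2, and positions fit build NCBIM37. ChIP-BS files have the same layout and were read the same way. The tables of RNA-seq and ChIP-seq were not used here. No coordinate was carried between builds. No file of these libraries marks duplicates of a molecule, so counts may hold PCR copies.

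Counts were summed in autosomal 500-bp tiles, with at least 20 calls and 3 positions in every library of a comparison. Tiles were tested in R 4.3.3 with a quasi-binomial logistic fit, the dispersion moderated by squeezeVar of limma 3.58.1, a quasi-likelihood F test and Benjamini-Hochberg adjustment over all tiles. Calls required an adjusted p under 0.05 and 20 points. Moderation gave every tile the dispersion 1.32, so a tile's own spread between replicates did not enter its p-value. Tiles with a mean level of 20% or more, fitted apart, had moderated dispersions of 1.50 to 3.49 around a prior value of 1.60. In counts simulated on the 31143 tiles, the fit recovered 0 of 50 tiles lowered by 10 points, 6 of 50 by 20 points, 24 of 50 by 30 points and 35 of 50 by 35 points, and made 4 false calls. For the comparison with E14 (30844 tiles) it recovered 9 of 100 tiles changed by 20 points and 55 of 100 changed by 40 points, with 5 false calls. Both simulations changed few tiles, starting from levels pooled over the libraries. The adjusted p was therefore stricter there than in the data. Library means were compared by exact permutation. Described tiles were the 10 largest falls and 5 largest rises called without overlap at 50 or more calls (no rise passed), the 10 smallest changes from 80% or more, and the 3 largest differences from E14 in each direction, mostly at most 1 per 1 Mb. Other tiles given by position were chosen after their values were seen. Tiles of 40% or more in serum were selected on the levels compared, which raises their serum mean slightly. The tiles, classes and comparisons were chosen with earlier results of these data known.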

Additional observations from a re-analysis of the deposited data

Results flagged for a closer look

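Between serum and 96 h of 2i the change of the UHRF1 KO differed from that of E14 by the test of the interaction. The UHRF1 KO fell further in 2393 tiles and less in 1 tile, and limma called none of them. The 3 tiles described above on chromosomes 8, 14 and 7 had differences of -58.2, -54.5 and -54.2 points, and the tile on chromosome 5 a difference of 23.9 points. With 2 libraries per group no single library could be examined for standing apart.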

How the results depend on the processing

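The fall in mean level kept its direction under all alternatives run, and exact tests on 2 libraries a group cannot pass 0.05. Leaving out single libraries gave -11.0 to -10.6 points, 5764 to 6213 tiles lower and 0 higher, r of -0.987 to -0.979 over the course, and differences in the share kept of -32.3 to -29.9 points from E14 and -22.1 to -21.1 from UHRF1 WT. At 50 or more calls these were -24.1 and -12.3. Counts of lower tiles moved with coverage: 19462 of 50274 at 10 or more calls, and 420 of 15676 at 50 or more. With all 12 UHRF1 KO libraries, which changes both the tiles and the fit, 2060 of 22999 were lower. Thinning to 20 calls left 0 tiles called lower, with 5762 at an unadjusted p under 0.05, where the moderation kept 1.14 prior degrees of freedom. With the dispersion of the unthinned fit, chosen after seeing the data, 5559 were called, and 6257 with dispersions set apart for tiles of 20% or more, also chosen after. The 10 largest falls lost their call in the thinned fit with its own dispersion and under no other alternative run. The 10 smallest changes lost it there too, 5 of them also with the dispersion of the unthinned fit, among them the tile on chromosome 1 from 85144001 (-15.0 points, adjusted p = 0.453 in the quasi-binomial fit), and 1 without 96 h library 1. At a difference of 10 points the steps gave 1 tile higher at 24 h, 2 higher at 48 h and 93 lower at 96 h, and 3 tiles fell less than in E14. By limma the steps gave 2, 0, 11 and 0 tiles lower and 0 higher at 48 h, and 0 tiles differed from E14 in either direction; the cause was not tested. Leaving out single libraries left 71 to 168, 41 to 90, 32 to 79 and 21 to 61 tiles lower at the 4 steps, 0 to 1, 0 to 2, 0 to 1 and 0 to 1 higher, 610 to 2346 tiles falling more than in E14 and 0 to 2 less. Replicate numbers did not pair the libraries (deviations of same-numbered serum and 96 h libraries correlated with r = 0.00100). The replicate block gave 6282 lower tiles, -10.8 points, r = -0.983, steps of 289, 129, 48 and 38 lower tiles and 2252 tiles falling more than in E14. Depth limits single tiles: Wilson half-widths reached 11.7 points in the tiles of largest fall and 11.2 in those of smallest change, all with 50 or more calls, and tiles with fewer calls are less precise.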

Other observations

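Neighbouring tiles kept more alike shares the closer they lay. Between the share of a tile in the first pair of UHRF1 KO libraries and that of another tile in the second pair, r was 0.257 for adjoining tiles (154 pairs), 0.239 at up to 2000 bp (176 pairs), 0.139 beyond that up to 10000 bp (488 pairs) and 0.0519 from there to 100000 bp (3569 pairs), against 0.415 for the same tile. Farther apart r stayed slightly above 0, at 0.0325 up to 1000000 bp (27202 pairs) and 0.0242 up to 5000000 bp (84227 pairs).

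The 168 h libraries of the UHRF1 KO stood higher than those of 96 h. Above, they enter only the fit of all 12 libraries and the medians of the kept and lost tiles. On 22999 tiles with coverage in all 12 UHRF1 KO libraries the mean was 4.72% and 4.64% at 168 h, 3.44% and 3.41% at 96 h and 4.17% and 4.10% at 72 h. In the 1733 of these tiles at 40% or more in both serum libraries it was 39.9% and 39.96% at 168 h, 32.6% and 32.0% at 96 h and 39.4% and 38.4% at 72 h. The 168 h libraries thus lay above those of 72 h over all these tiles, and close to them in the methylated ones. No test was run on this difference, and positions with a single call made up 50.4% and 49.4% of the 168 h files against 26.2% and 24.9% of the 96 h files. Medians were also taken over those of the 5643 methylated tiles that had a value. At 168 h they were 41.2% in the UHRF1 KO, 41.2% in UHRF1 WT and 33.2% in E14. At 96 h they were 32.8%, 63.6% and 55.7%. The lower level of the UHRF1 KO at 96 h was thus not seen at 168 h, and this was not tested either.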
